A study of Homo sapiens with 4 samples.

Results

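The kinesin motor family was followed in NCC-IT-A3, a line of embryonal carcinoma, which is a germ cell tumour whose cells resemble those of the early embryo. All protein-coding genes whose symbol begins with KIF or KIFC and a number were taken as members, which gave 42 of the 27685 gene IDs of each library. Of the 42, 36 averaged at least 1 TPM (transcript abundance per length, scaled to a total of 1000000 in each library) over the 4 libraries and were tested. Barasertib, which inhibits Aurora B kinase, was given at 100 nM for 4 days to the cells of 2 libraries. The other 2 libraries came from cells given the solvent DMSO for 4 days. Both groups were the same line, grown in RPMI medium with 10% serum. No label states that libraries of a group were separate cultures, so the p-values measure only how far these samples differ, a spread that may be technical.

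Kinesins are motors that use ATP to walk along microtubules or to take them apart. Mitotic kinesins build the spindle, align chromosomes on it and organise the midzone between separating chromosomes, where the cell later divides. Transport kinesins carry vesicles, organelles and cilium components in cells at any stage of the cycle. Aurora B phosphorylates several mitotic kinesins, among them KIF2C, KIF20A and KIF23. By these textbook roles, 15 members were classed as mitotic, 17 as transport, and 10 as kinesins of the cilium or of other functions. Mitotic kinesin genes are generally transcribed late in the cell cycle, and the CHR element and the CCAAT box are promoter motifs known from that gene class.

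The 4 libraries rested on 4.59 and 4.52 Gb of aligned sequence with barasertib and on 4.22 and 4.43 Gb with DMSO. These values are estimates from the largest ratio of coverage to FPKM in each library. For the tested kinesins, coverage (a read depth per gene, as listed by the authors) ran from 2.43 for KIF27 to 223 for KIF2C with barasertib. With DMSO it ran from 3.07 for KIF12 to 151 for KIF5B. Coverage did not track TPM in every gene. With barasertib KIF13A had a coverage of 4.61 and 4.42 at 19.6 and 18.8 TPM, and KIF13B one of 14.0 and 11.9 at 7.04 and 6.12 TPM. Replicate libraries differed over these genes with an SD of 0.16 (barasertib) and 0.10 (DMSO) on the log2 scale. Of 9 embryonal carcinoma markers all averaged above 1 TPM, with POU5F1 at 3999 and 3949 TPM with barasertib and at 3708 and 3524 TPM with DMSO. TNFRSF8 was the lowest, at 3.417 and 2.998 TPM with barasertib and 3.77 and 3.001 TPM with DMSO, and PODXL differed between the barasertib libraries (506 and 167 TPM, against 320 and 326 TPM with DMSO). By the limma test described next, 4 of the 9 were called higher and 2 lower, against 22% and 7.44% of all tested genes. In all 3 scalings named below, 1 was higher and 2 were lower, against 10% and 7.05%. The 1 higher was NANOG (246 and 258.5 TPM with barasertib, 168 and 159 TPM with DMSO). CRIPTO was among the lower (458 and 514 TPM with barasertib, 596 and 616 TPM with DMSO). Each log2 change is the mean log2(TPM + 1) with barasertib minus that with DMSO, a scale that understates the change of low genes, and calls are limma tests with a Benjamini-Hochberg adjusted p under 0.05 over all 13938 tested genes. Over all tested genes the median log2 change was 0.11 in TPM. Median-of-ratios scaling moved it by -0.12 and quantile normalisation by -0.12, so calls that hold in all 3 scalings are counted as well. Fits with 1 library left out rest on the spread of the other group, since the lone library is assumed to vary like that group.

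Promoter sequence from RefSeq (GRCh38.p14) is shown for mitotic kinesins with the largest changes, for others in which the 2 motifs stand close together, and for KIF2A, the tested mitotic kinesin that did not pass the test. Each line gives the 120 bases directly before the annotated start, 5′ to 3′ on the strand of the gene, with matches to the CHR element (TTTGAA or TTCGAA) and the CCAAT box (CCAAT) on either strand in capitals.
KIF20A, chr5:138178992-138179111, + strand: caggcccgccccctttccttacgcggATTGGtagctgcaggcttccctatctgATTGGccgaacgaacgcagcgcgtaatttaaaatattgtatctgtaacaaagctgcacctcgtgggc
KIF2C, chr1:44739717-44739836, + strand: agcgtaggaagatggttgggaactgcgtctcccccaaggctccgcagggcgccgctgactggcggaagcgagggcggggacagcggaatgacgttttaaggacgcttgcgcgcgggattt
KIF18B, chr17:44947774-44947893, - strand: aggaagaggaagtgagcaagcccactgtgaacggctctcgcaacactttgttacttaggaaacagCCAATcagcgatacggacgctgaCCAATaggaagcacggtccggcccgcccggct
KIFC1, chr6:33391703-33391822, + strand: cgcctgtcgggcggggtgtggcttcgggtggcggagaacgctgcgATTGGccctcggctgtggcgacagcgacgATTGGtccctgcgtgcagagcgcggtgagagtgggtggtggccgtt
KIF23, chr15:69414229-69414348, + strand: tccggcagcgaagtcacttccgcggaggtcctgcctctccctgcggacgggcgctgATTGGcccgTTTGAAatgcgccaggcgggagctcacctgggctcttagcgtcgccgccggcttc
KIF4A, chrX:70289984-70290103, + strand: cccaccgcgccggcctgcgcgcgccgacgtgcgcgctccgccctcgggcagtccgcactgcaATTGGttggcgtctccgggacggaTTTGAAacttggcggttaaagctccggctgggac
KIF11, chr10:92593010-92593129, + strand: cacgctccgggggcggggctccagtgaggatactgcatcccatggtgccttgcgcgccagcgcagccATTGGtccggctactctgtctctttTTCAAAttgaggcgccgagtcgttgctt
KIF18A, chr11:28108157-28108276, - strand: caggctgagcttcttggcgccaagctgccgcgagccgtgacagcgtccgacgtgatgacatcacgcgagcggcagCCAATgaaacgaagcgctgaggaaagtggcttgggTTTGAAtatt
KIF2A, chr5:62306086-62306205, + strand: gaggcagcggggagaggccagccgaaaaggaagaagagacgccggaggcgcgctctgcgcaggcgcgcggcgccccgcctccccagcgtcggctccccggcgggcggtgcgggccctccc

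The motifs were counted in windows from 250 bases before to 50 after each annotated start, on both strands. Of 16 windows of mitotic kinesins, 12 (75.0%) held a CHR match, 11 (68.8%) a CCAAT match and 10 (62.5%) both. KIF22 has more than 1 window, and these overlap and share the same CHR match, which is counted in each. The table covers all 15 mitotic kinesins but 12 of the 17 transport kinesins, some with several windows (KIF1A and KIF1B have 3 each). Of these 17 transport windows, 1 (5.88%) held a CHR match, 5 (29.4%) a CCAAT match and 1 (5.88%) both, the last being KIF5B. Among all 35116 windows of the table, 16.4% held a CHR match, 34.6% a CCAAT match and 6.38% both. The matches of both motifs overlapped each other in 0 kinesin windows and in 0.128% of all windows. KIF18B and KIFC1, whose printed stretches show only CCAAT matches, had a CHR match 3 and 5 bases after the start. KIF20A had no match to TTTGAA or TTCGAA in the window, and KIF2C and KIF2A had no match to either motif as searched. Other spellings of the CHR element were not searched. These are letter matches, and the motifs were chosen after the expression values had been seen.

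Transcripts of the mitotic kinesins rose together with barasertib. Of 13 tested members, 12 rose and 0 fell by limma (0 fell also at an unadjusted p under 0.05), where 22% of all tested genes rose and 7.44% fell. The rises ran from 1.22-fold to 1.88-fold in mean TPM, and 0 of the 36 tested kinesins changed by 2-fold or more. The median log2 change of the mitotic kinesins was 0.54, which is 0.43 above the median of all tested genes. In all 3 scalings 10 of the 13 rose, against 10% of all tested genes. In bulk RNA, a larger share of cells that express these genes and more of their RNA per cell cannot be told apart. The groups did not overlap for 12 of the 13, with barasertib the higher, against 49.1% of all tested genes.

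**Figure D1:**
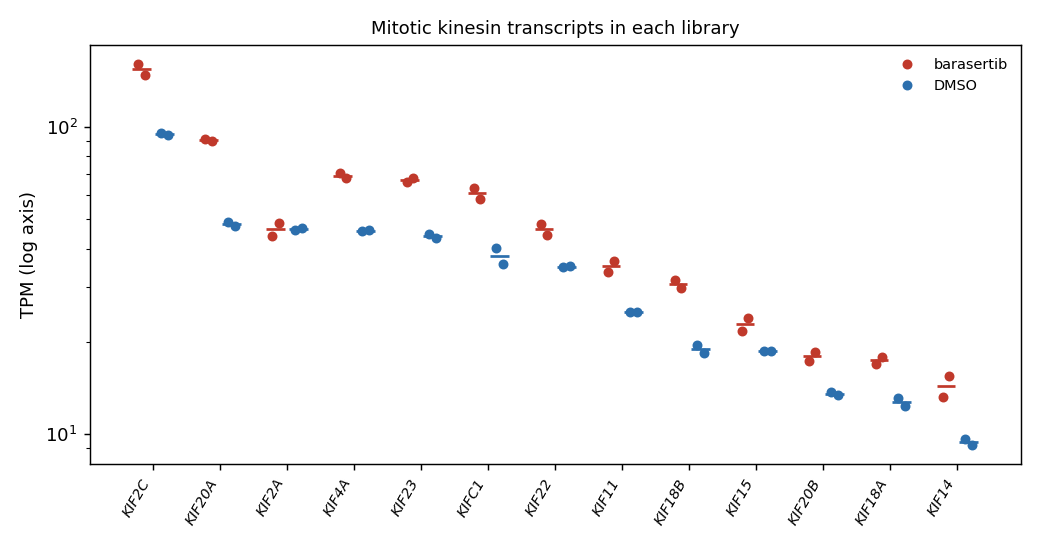
TPM (log axis) of the 13 tested mitotic kinesin genes, ordered by their DMSO mean, with 1 point per library and a bar at the mean of the 2 libraries of each group. The barasertib points lie above the DMSO points for every gene drawn except KIF2A, where the groups overlap.

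Motors of the spindle midzone and of cytokinesis included the largest change. KIF20A (MKLP2), which brings the chromosomal passenger complex with Aurora B to the midzone, had 91.2 and 90.0 TPM with barasertib, against 48.9 and 47.6 TPM with DMSO. This was a log2 change of 0.90 (0.895 ± 0.053, SE), with a limma adjusted p = 0.000417. KIF23 (MKLP1), the motor of the centralspindlin complex, had 66.2 and 68.0 TPM with barasertib and 44.7 and 43.6 TPM with DMSO, a log2 change of 0.59 ± 0.056 (SE, limma adjusted p = 0.0015). KIF14, which binds citron kinase at the midbody, was the least abundant tested mitotic kinesin, with 13.2 and 15.4 TPM with barasertib and 9.68 and 9.25 TPM with DMSO. It rose by a log2 change of 0.54 (limma adjusted p = 0.0124), and leaving out barasertib replicate 2 ended the call (limma adjusted p = 0.0582). KIF20B (MPP1), a relative of KIF20A that acts in late cytokinesis, had 17.4 and 18.5 TPM with barasertib and 13.7 and 13.4 TPM with DMSO. Its log2 change of 0.38 passed in TPM (limma adjusted p = 0.0168) but not after median-of-ratios scaling (0.0621) or quantile normalisation (0.0517), nor with any 1 library left out (from 0.0504 to 0.0750). In hg19, KIF20A (gene ID 10112) spans chromosome 5 from 137514417 to 137523404 and overlaps the end of CDC23, on the other strand, by 68 bases. CDC23 itself had 133 and 135 TPM with barasertib and 132 and 131 TPM with DMSO. KIF23 overlaps the antisense gene KIF23-AS1 by 784 bases, which had 0.837 and 0.711 TPM with barasertib and 0.204 and 0.286 TPM with DMSO. Use of strand in the authors' summary is not stated, so reads in such overlaps cannot be assigned with certainty.

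Motors that shorten or trim microtubules split. KIF2C (MCAK), a microtubule depolymerase of centromeres that Aurora B regulates, was the most abundant mitotic kinesin, with 160 and 147 TPM with barasertib and 95.4 and 93.8 TPM with DMSO. Its log2 change was 0.69 ± 0.058 (SE, limma adjusted p = 0.00108). Its paralog KIF2A, which works at spindle poles and also in neurons, had 44.1 and 48.7 TPM with barasertib and 46.2 and 46.8 TPM with DMSO, and the groups overlap. The log2 change of KIF2A was 0.00 (-0.0042, 95% interval -0.17 to 0.16, limma adjusted p = 0.971). The third paralog, KIF2B, was listed at 0 in all 4 libraries. KIF18B, which shortens astral microtubules, had 31.8 and 30.0 TPM with barasertib and 19.6 and 18.4 TPM with DMSO, a log2 change of 0.68 (limma adjusted p = 0.00222). KIF18A, which damps chromosome movements at the metaphase plate, had 16.9 and 17.9 TPM with barasertib and 13.1 and 12.4 TPM with DMSO. The change of KIF18A, 0.42, passed in all 3 scalings (limma adjusted p = 0.0136 in TPM). The KIF18A call ended when barasertib replicate 1 (limma adjusted p = 0.0514), barasertib replicate 2 (0.0674) or DMSO replicate 2 (0.0572) was left out.

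The motors that form the spindle and keep it bipolar rose as well. KIFC1 (HSET), which walks to microtubule minus ends and focuses spindle poles, had 63.4 and 58.1 TPM with barasertib and 40.2 and 35.9 TPM with DMSO, a log2 change of 0.66 (limma adjusted p = 0.00307). KIF11 (Eg5), which pushes spindle poles apart, had 33.7 and 36.5 TPM with barasertib and 24.9 and 25.0 TPM with DMSO, a log2 change of 0.47 (limma adjusted p = 0.00584). KIF15, which can maintain the bipolar spindle beside KIF11, changed least among the called mitotic kinesins. It had 21.6 and 23.9 TPM with barasertib and 18.7 and 18.6 TPM with DMSO, a log2 change of 0.27 (limma adjusted p = 0.0467). KIF15 did not pass after median-of-ratios scaling (limma adjusted p = 0.226) or quantile normalisation (0.163), nor with any 1 library left out (0.0619 to 0.158).

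Both chromokinesins, which bind chromosome arms, were among the genes that rose. KIF4A, which also shapes the midzone with PRC1, had 70.6 and 68.0 TPM with barasertib and 45.8 and 46.0 TPM with DMSO, a log2 change of 0.58 (limma adjusted p = 0.00155). KIF22 (Kid) had 48.3 and 44.3 TPM with barasertib and 35.0 and 35.1 TPM with DMSO, a log2 change of 0.39 (limma adjusted p = 0.00931). KIF4B, a copy of KIF4A on chromosome 5, was listed at 0.174 and 0.166 TPM with barasertib and at 0.00611 and 0.0832 TPM with DMSO, below the level for a test. The annotated KIF4A and KIF4B transcripts share 94.8% of 4386 aligned positions, so reads could be split between them, and the KIF4B values are uncertain. Of the 12 mitotic calls, 8 were also made in each fit with 1 library left out.

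**Figure D2:**
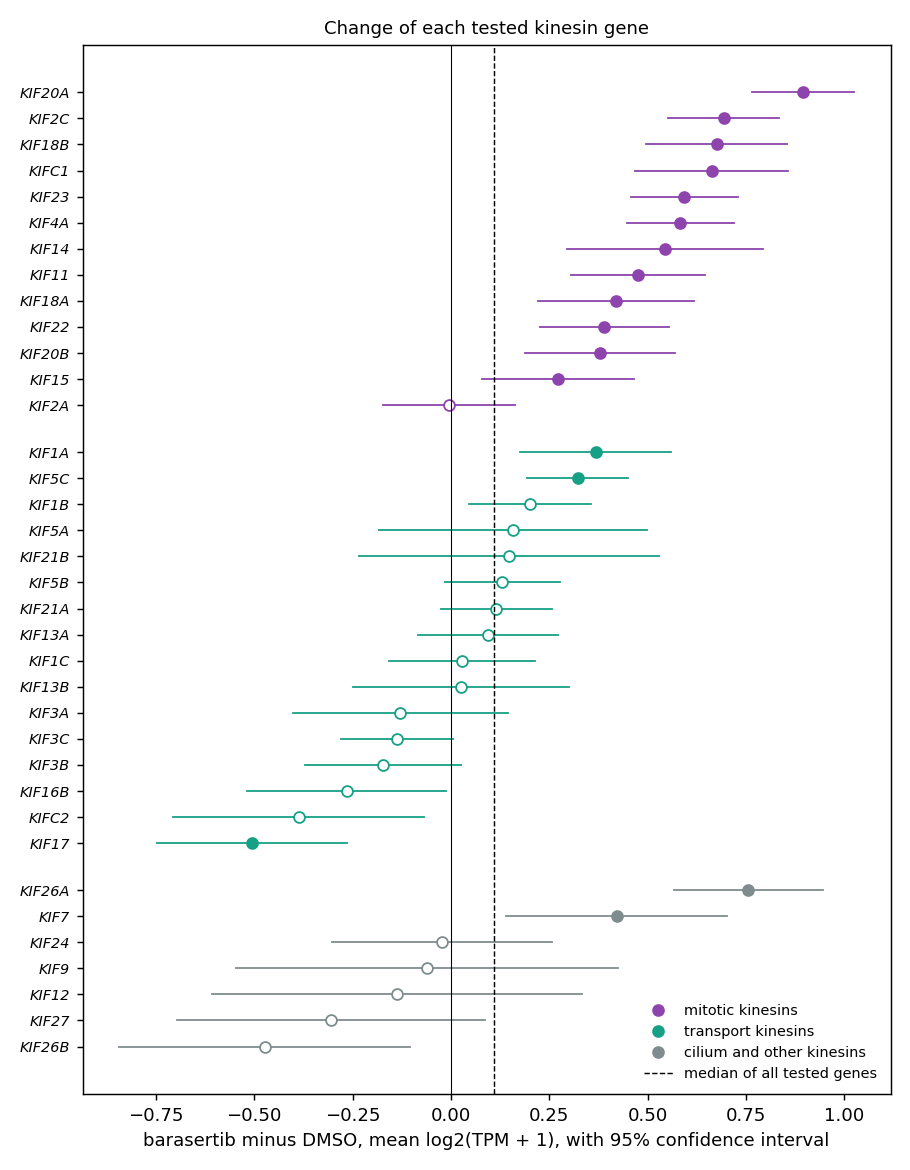
Change of each of the 36 tested kinesin genes, barasertib minus DMSO, as the difference of mean log2(TPM + 1) with its 95% confidence interval from limma. Filled points passed the test, the dashed line marks the median of all tested genes at 0.11, and 12 of 13 mitotic kinesins lie to the right of it.

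The transport kinesins moved in both directions and mostly little. Of 16 tested members, 2 rose, 1 fell and 13 did not pass the test. The 2 that rose are 12.5% of the tested members, against 22% of all tested genes, and the 1 that fell is 6.25%, against 7.44%. The median log2 change was 0.06 in TPM, 0.05 below that of all tested genes (-0.049), and it was -0.06 after median-of-ratios scaling (-0.063) and after quantile normalisation (-0.059). After median-of-ratios scaling 1 rose and 5 fell, against 11% and 13.6% of all tested genes, and after quantile normalisation 1 rose and 4 fell, against 11.8% and 11.4%. In all 3 scalings 1 rose and 1 fell, against 10% and 7.05% of all tested genes. The groups did not overlap for 12 of the 16. Barasertib was above DMSO for 7 of them, against 49.1% of all tested genes, and below DMSO for 5, against 19.7%.

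Conventional kinesin, the motor of many vesicles and of mitochondria, was represented by its 3 heavy chains. KIF5C, a heavy chain best known from neurons, had 81.5 and 83.9 TPM with barasertib and 65.2 and 66.7 TPM with DMSO. It rose by a log2 change of 0.32 ± 0.053 (SE, limma adjusted p = 0.008), in all 3 scalings and with any 1 library left out. KIF5B, the widely expressed heavy chain, had 83.9 and 91.2 TPM with barasertib and 79.1 and 80.6 TPM with DMSO, with a log2 change of 0.13 (95% interval -0.02 to 0.28, limma adjusted p = 0.151). KIF5A, likewise known from neurons, was low, at 3.56 and 4.36 TPM with barasertib and 3.55 and 3.31 TPM with DMSO (limma adjusted p = 0.430). Of the kinesin light chains, which link the heavy chains to cargo, KLC1 rose in TPM (76.4 and 78.1 TPM with barasertib, 64.0 and 68.8 TPM with DMSO, limma adjusted p = 0.0392). KLC2 fell (48.1 and 45.6 TPM with barasertib, 54.4 and 55.1 TPM with DMSO, limma adjusted p = 0.0374), and KLC3 and KLC4 did not pass. Both calls ended with any 1 library left out (limma adjusted p of 0.0531 to 0.183 for KLC1 and of 0.0665 to 0.138 for KLC2), and KLC1 did not pass after median-of-ratios scaling (0.335) or quantile normalisation (0.193).

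In the kinesin-3 group, KIF1A rose and its relatives did not pass. KIF1A, the carrier of synaptic vesicle precursors, had 17.1 and 17.4 TPM with barasertib and 12.7 and 13.6 TPM with DMSO, a log2 change of 0.37 (limma adjusted p = 0.0187). KIF1A did not pass after median-of-ratios scaling (limma adjusted p = 0.0706) or quantile normalisation (0.0626). It did not pass either when barasertib replicate 1 (0.0737), barasertib replicate 2 (0.0757) or DMSO replicate 1 (0.0875) was left out. KIF1B, which moves mitochondria and vesicles, had 62.2 and 66.1 TPM with barasertib and 53.9 and 57.4 TPM with DMSO. The groups do not overlap, and the log2 change of 0.20 had a limma adjusted p = 0.0604. The broadly expressed vesicle motor KIF1C had 60.2 and 56.3 TPM with barasertib and 53.8 and 60.5 TPM with DMSO, with overlapping groups. KIF16B, a motor of early endosomes, had 6.17 and 6.80 TPM with barasertib and 7.72 and 8.26 TPM with DMSO. Its log2 change of -0.26 did not pass in TPM (limma adjusted p = 0.104) and passed after median-of-ratios scaling (0.0418) and quantile normalisation (0.0348). KIF13A and KIF13B, which carry endosomes and other vesicles, had log2 changes of 0.09 and 0.03 (limma adjusted p of 0.363 and 0.885), both negative after either scaling.

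Of 4 kinesin-2 motors, which drive transport into cilia, 1 fell in TPM and 3 did not pass. KIF17, a homodimeric kinesin-2, was the one kinesin that fell in TPM, with 6.90 and 6.22 TPM with barasertib and 9.53 and 9.92 TPM with DMSO. Its log2 change was -0.51 ± 0.099 (SE, limma adjusted p = 0.0143) and passed in all 3 scalings. The KIF17 call ended when replicate 2 of barasertib (limma adjusted p = 0.0639) or of DMSO (0.0576) was left out. KIF3A and KIF3B, which pair as the main kinesin-2 motor, did not pass in TPM: KIF3A had 7.60 and 9.09 TPM with barasertib and 8.95 and 9.42 TPM with DMSO, and KIF3B had 15.4 and 14.7 TPM with barasertib and 16.4 and 17.8 TPM with DMSO. The log2 change of KIF3B passed after median-of-ratios scaling (-0.30, limma adjusted p = 0.0436) and not after quantile normalisation (0.0542). KIFAP3, the subunit that links that pair to cargo, did not pass either (17.1 and 18.6 TPM with barasertib, 16.2 and 17.2 TPM with DMSO, limma adjusted p = 0.441). KIF3C, the neuronal partner of KIF3A, had 38.4 and 38.7 TPM with barasertib and 43.1 and 41.9 TPM with DMSO. Its log2 change of -0.14 did not pass in TPM (limma adjusted p = 0.129) and passed after median-of-ratios scaling (0.0225) and quantile normalisation (0.0406).

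The remaining transport kinesins did not pass in TPM. KIFC2, a minus-end motor, varied between the barasertib libraries, at 19.3 and 14.6 TPM, against 21.9 and 22.7 TPM with DMSO. Its log2 change of -0.39 had a limma adjusted p = 0.071, and it passed after median-of-ratios scaling (0.0384), after quantile normalisation (0.0462) and without barasertib replicate 1 (0.0289). KIFC2 overlaps FOXH1, on the other strand, by 385 bases. KIFC3, another minus-end motor, lay just under the level for a test, at 1.28 and 1.47 TPM with barasertib and 0.536 and 0.488 TPM with DMSO. With the filter on low values removed, the log2 change of KIFC3 was 0.65 (limma adjusted p = 0.0268). That change rests on a coverage of only 0.576 and 0.646 with barasertib and 0.222 and 0.214 with DMSO. KIF21A, which restrains microtubule growth, had 48.8 and 47.8 TPM with barasertib and 45.2 and 43.8 TPM with DMSO (log2 change 0.12, limma adjusted p = 0.18). Its paralog KIF21B had 3.26 and 2.73 TPM with barasertib and 2.35 and 2.87 TPM with DMSO, and the groups overlap.

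**Figure D3:**
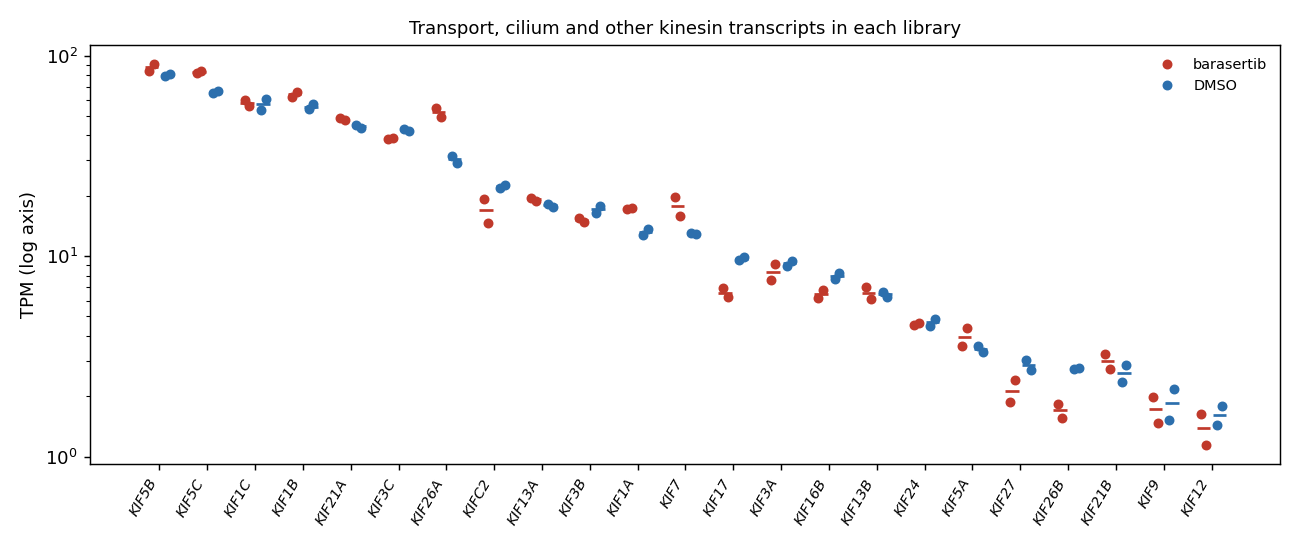
TPM (log axis) of the 16 tested transport kinesins and the 7 tested kinesins of the cilium and other functions, ordered by their DMSO mean, with 1 point per library and a bar at each group mean. KIF26A and KIF5C stand higher with barasertib and KIF17 stands lower, while KIF1C, KIF3A and KIF13B overlap.

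Among the kinesins of the cilium and other functions, 2 of 7 tested members rose and 0 fell by limma, against 22% and 7.44% of all tested genes. In all 3 scalings 1 rose and 0 fell, against 10% and 7.05% of all tested genes. At an unadjusted p under 0.05, 2 were higher and 1 lower, against 32.2% and 10.9% of all tested genes. KIF26A, a motor-like protein that binds microtubules without using ATP, had 54.9 and 49.3 TPM with barasertib and 31.5 and 29.3 TPM with DMSO. Its log2 change of 0.76 ± 0.078 (SE, limma adjusted p = 0.00191) was the second largest of the family, held in all 3 scalings and held with any 1 library left out. Its paralog KIF26B had 1.83 and 1.57 TPM with barasertib and 2.72 and 2.77 TPM with DMSO. The groups do not overlap, and the log2 change of KIF26B, -0.47, did not pass in TPM (limma adjusted p = 0.0614) but passed after median-of-ratios scaling (0.0426) and quantile normalisation (0.025). KIF7, which organises the tip of the cilium for Hedgehog signalling, had 19.8 and 15.8 TPM with barasertib and 13.1 and 12.9 TPM with DMSO. The KIF7 log2 change of 0.42 passed in TPM (limma adjusted p = 0.0391) and not after median-of-ratios scaling (0.121) or quantile normalisation (0.104), nor without barasertib replicate 1 (0.120), DMSO replicate 1 (0.0837) or DMSO replicate 2 (0.0918). KIF7 overlaps TICRR, on the other strand, by 53 bases, and TICRR had 24.0 and 22.9 TPM with barasertib and 18.5 and 17.8 TPM with DMSO. KIF27, a relative of KIF7, had 1.86 and 2.40 TPM with barasertib and 3.02 and 2.70 TPM with DMSO (limma adjusted p = 0.197).

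The others of this class showed no passing change or were too low for a test. KIF24, which acts at centrioles and restrains cilium formation, had 4.52 and 4.62 TPM with barasertib and 4.47 and 4.86 TPM with DMSO (limma adjusted p = 0.897). KIF9 and KIF12 lay between 1.15 and 2.17 TPM in all 4 libraries, with overlapping groups. KIF6 was listed between 0.401 and 0.858 TPM. KIF19 and KIF25 were each listed at 0 in 3 libraries, with 0.0557 TPM for KIF19 in barasertib replicate 1 and 0.138 TPM for KIF25 in DMSO replicate 2. All 9 markers of multiciliated cells lay below 1 TPM on average, and their summed level was 2.67 and 2.03 TPM with barasertib and 2.15 and 1.20 TPM with DMSO.

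The balance between the classes shifted with these changes. Summed over its 15 members, the mitotic class had 679 and 667 TPM with barasertib, against 456 and 446 TPM with DMSO, a 1.49-fold difference of the means. The 17 transport kinesins summed to 482 and 486 TPM with barasertib, against 449 and 463 TPM with DMSO, a 1.06-fold difference. The 10 kinesins of the cilium and other functions summed to 87.4 and 76.7 TPM with barasertib, against 58.3 and 57.1 TPM with DMSO. This was a 1.42-fold difference, and KIF26A alone had 54.9 and 49.3 TPM with barasertib and 31.5 and 29.3 TPM with DMSO. Mitotic kinesins thus made up 54.4% and 54.2% of all kinesin TPM with barasertib and 47.3% and 46.2% with DMSO. The transport share was 38.6% and 39.5% with barasertib and 46.6% and 47.9% with DMSO. The share of the third class was 7.0% and 6.2% with barasertib and 6.1% and 5.9% with DMSO. The shares do not overlap between groups. As ratios within a library they are not changed by a single factor per library, such as median-of-ratios scaling, though quantile normalisation can change them. No test was run on the shares, and an exact two-sided permutation test of 2 libraries against 2 goes no lower than p = 0.333.

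**Figure D4:**
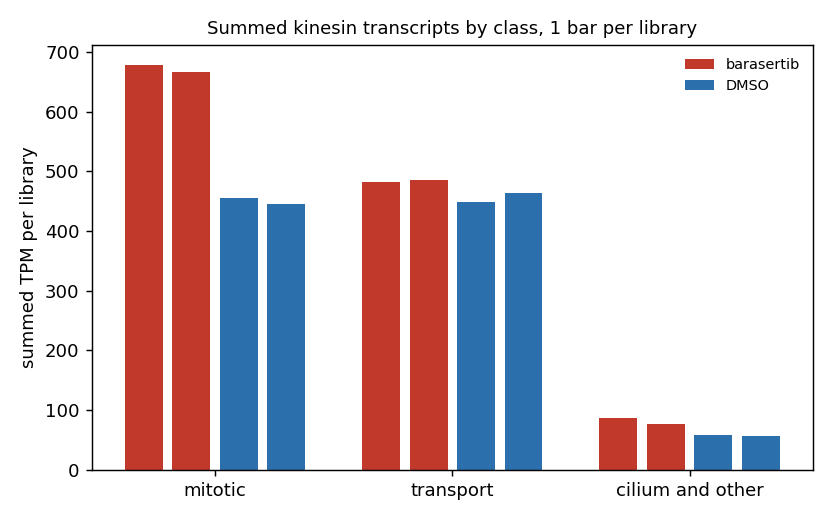
Summed TPM of the 15 mitotic, 17 transport and 10 other kinesin genes, with 1 bar for each library. The mitotic bars stand at 679 and 667 TPM with barasertib and at 456 and 446 TPM with DMSO, a wider gap than in the transport class.

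Ratios between related genes in the same library are likewise unchanged by a single factor per library, but not by quantile normalisation. KIF26A exceeded KIF26B by 29.9 and 31.5 times with barasertib and by 11.6 and 10.6 times with DMSO, the widest shift of the 14 pairs examined. The KIF2C to KIF2A ratio was 3.63 and 3.02 with barasertib and 2.064 and 2.004 with DMSO. KIFC1 to KIFC2, a pair of minus-end motors from different classes, was at 3.28 and 3.98 with barasertib and 1.84 and 1.58 with DMSO. KIF7 to KIF27 was at 10.6 and 6.58 with barasertib and 4.32 and 4.76 with DMSO. KIF26B (1.57 to 2.77 TPM over all libraries) and KIF27 (1.86 to 3.02 TPM) are low, which makes the ratios to them less certain. Other pairs inside the mitotic class shifted less than KIF2C to KIF2A. KIF20A to KIF20B was 5.25 and 4.87 with barasertib and 3.56 and 3.56 with DMSO. The KIF18B to KIF18A ratio was 1.88 and 1.68 with barasertib and 1.49 and 1.49 with DMSO. KIF5C to KIF5B stood at 0.971 and 0.921 with barasertib and 0.825 and 0.827 with DMSO. The ratios KIF3C to KIF3A, KIF3B to KIF3A, KIF13A to KIF13B and KIF21A to KIF21B overlapped between groups. No test was run on these ratios.

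**Figure D5:**
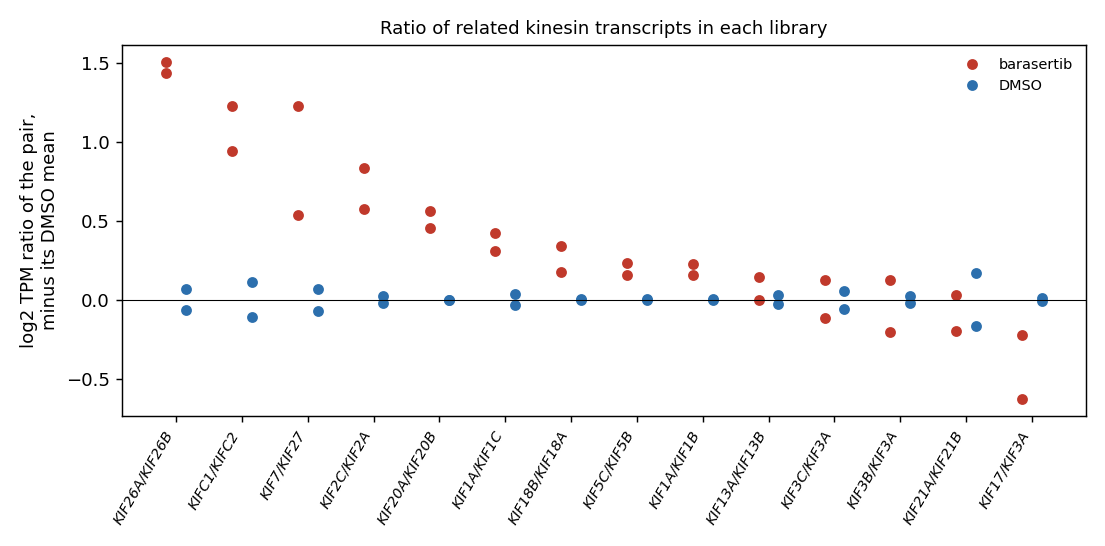
Log2 TPM ratio of 14 pairs of related kinesin genes in each library, minus the mean of the DMSO libraries of that pair, with 1 point per library. KIF26A/KIF26B shows the widest shift, with KIF26B at only 1.57 to 2.77 TPM. KIF17/KIF3A is the one pair with both barasertib points below the DMSO points.

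Most genes that work with the mitotic kinesins rose. Of 25 partners and regulators, 22 rose and 0 fell by limma (0 fell also at an unadjusted p under 0.05), 18 of them in all 3 scalings, with a median 0.42 above all tested genes. Over all tested genes 22% rose, 7.44% fell and 10% rose in all 3 scalings. HMMR, which binds KIF15 and TPX2 at spindle poles, had 81.5 and 83.4 TPM with barasertib and 41.9 and 43.8 TPM with DMSO (limma adjusted p = 0.000441). TPX2, which activates Aurora A and targets KIF11 and KIF15 to the spindle, had 128 and 127 TPM with barasertib and 79.2 and 75.8 TPM with DMSO (limma adjusted p = 0.000702). CDK1, the main mitotic kinase, had a log2 change of 0.87 (limma adjusted p = 0.000486). PSRC1, a microtubule regulator, had one of 0.85 (limma adjusted p = 0.0165). The DMSO libraries differed for PSRC1 (30.1 and 44.9 TPM), and its call ended when either barasertib library was left out. CENPE, the kinetochore kinesin that falls outside the naming rule, had 11.5 and 13.6 TPM with barasertib and 10.4 and 9.30 TPM with DMSO, a log2 change of 0.32 that did not pass (limma adjusted p = 0.0765). STARD9, a centrosomal kinesin also outside the rule, did not pass (limma adjusted p = 0.299), nor did KIFBP, which binds and restrains several kinesins (limma adjusted p = 0.105). Among 10 proliferation markers 9 rose and 0 fell by limma (0 fell also at an unadjusted p under 0.05), 8 in all 3 scalings, and their summed level was 1613 and 1596 TPM with barasertib and 1144 and 1164 TPM with DMSO. The part of a change in cell cycle stage in the mitotic kinesin values was not tested.

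Cargo adaptors of the transport kinesins were called at shares near those of all tested genes. Of 20 tested adaptors 4 rose and 2 fell, against 22% and 7.44% of all tested genes, and 1 rose and 2 fell in all 3 scalings, against 10% and 7.05%, with a median at -0.00 relative to all tested genes (-0.0018). APBB1, which ties amyloid precursor protein to kinesin, had 22.2 and 22.9 TPM with barasertib and 13.9 and 17.1 TPM with DMSO (limma adjusted p = 0.0163). MAPK8IP3 (JIP3), a kinesin adaptor of axons, had 14.0 and 12.5 TPM with barasertib and 9.79 and 8.32 TPM with DMSO (limma adjusted p = 0.02). RHOT2 (Miro2), which anchors the motor to mitochondria, rose (limma adjusted p = 0.0157), and TRAK2, its adaptor, fell, with 30.5 and 32.9 TPM with barasertib and 39.2 and 40.7 TPM with DMSO (limma adjusted p = 0.0175). Of the 4 that rose, APBB1 passed in all 3 scalings. MAPK8IP3 did not pass after median-of-ratios scaling (limma adjusted p = 0.0554) or quantile normalisation (0.0529), nor RHOT2 after median-of-ratios scaling (0.0705). With 1 library left out, the limma adjusted p reached 0.0852 for APBB1 (barasertib replicate 2), 0.103 for MAPK8IP3 (barasertib replicate 1), 0.0612 for RHOT2 (barasertib replicate 1) and 0.0754 for TRAK2 (barasertib replicate 1). Since KIF1A and KIF5C are known from neurons, 12 neuron markers were set beside them: 6 lay below 1 TPM, NEUROD1 was at 0 in all 4 libraries, and of 6 tested 2 rose and 1 fell, against 22% and 7.44% of all tested genes. Their summed level was 236 and 232 TPM with barasertib and 226 and 234 TPM with DMSO. Of the markers below 1 TPM, RBFOX3 (0.764 and 0.750 TPM with barasertib, 0.219 and 0.208 TPM with DMSO), SYP (1.13 and 0.917 TPM with barasertib, 0.560 and 0.295 TPM with DMSO) and SNAP25 (0.265 and 0.586 TPM with barasertib, 0.205 and 0.133 TPM with DMSO) were higher in both barasertib libraries than in either DMSO library. Among the tested markers, TUBB3, MAP2 and GAP43 were likewise higher without overlap. STMN2 (89.5 and 96.5 TPM with barasertib, 110 and 123 TPM with DMSO) and SYT1 (7.038 and 7.755 TPM with barasertib, 8.554 and 8.758 TPM with DMSO) were lower without overlap. Over all tested genes, the groups did not overlap with barasertib above in 49.1% and below in 19.7%. The part of neuron-like cells in the KIF1A and KIF5C values was not tested.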

How the data were processed

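Polyadenylated RNA was sequenced in 4 stranded libraries, per the labels' protocols. The authors used HISAT2, StringTie and hg19, per the submitters' processing notes; versions, and whether strand was used, are not given there. Per the file headers, the authors' deposited values are coverage (signal), FPKM and TPM per gene, and TPM sums to 1000000 in each library. Rows were summed per gene ID, and 27559 of 27685 IDs matched a RefSeq symbol. The largest ratio of coverage to FPKM in each library, with rows of low FPKM left out, was taken as the aligned bases. No counts were given.

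The test was limma (3.58.1, R 4.3.3) on log2(TPM + 1) for the 13938 genes averaging 1 TPM or more, with group as the only term, a mean-variance trend and Benjamini-Hochberg adjustment. Tested on simulated data, it gave the right sign to the changed genes that it called. In most runs, however, false calls made up more than the nominal share. Far fewer genes were changed in the simulation than were called here. Median-of-ratios factors came from all genes above 0 in every library. Shared replicate numbers were not taken to pair the libraries. Kinesin classes, context lists and motifs were chosen with earlier results of these data known. All members are named, and up to 4 called genes per context list. Alternatives were other filters, pseudocounts, units and scalings, no trend, the replicate block and leaving out each library.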

Additional observations from a re-analysis of the deposited data

How the results depend on the processing

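Of 461 refits of single kinesin genes, 395 kept direction and side of the threshold, 34 lost the call, 12 gained one and 20 changed sign, all 20 in genes that did not pass. Mitotic kinesins that rose numbered 8 to 12 under every alternative and none fell under any of them. Over all tested genes, 1534 rose and 1891 fell after median-of-ratios scaling, 1649 and 1591 after quantile normalisation, and 674 fell without the mean-variance trend. With 1 library left out, 1324 to 2105 rose and 583 to 687 fell. Kinesins that fell numbered 6, 5 and 2 under the same 3 settings and 0 to 2 with 1 library left out. Transport kinesins that rose numbered 1 and those that fell 5 and 4 after median-of-ratios scaling and quantile normalisation, and 1 to 2 rose and 0 to 2 fell with 1 library left out, while 3 rose without the filter and 3 with the replicate block. The mitotic median was 0.42 after median-of-ratios scaling, 0.42 after quantile normalisation, 0.51 without the filter, 0.59 and 0.42 with pseudocounts of 0.1 and 5, 0.47 with FPKM, 0.56 without KIF2A, and 0.45 to 0.57 with 1 library left out. The transport median was -0.06 (-0.0629 and -0.0586) after those scalings. The cause was not tested.

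Signs changed, in genes that did not pass, in the log2 change of KIF13A (-0.0338 and -0.0123), KIF13B (-0.0921 and -0.1365) and KIF1C (-0.1039 and -0.0694) after median-of-ratios scaling and quantile normalisation, of KIF21A (-0.0168) and KIF5B (-0.0032) after the first and of KIF21B (-0.0479) and KIF5A (-0.0416) after the second. With 1 library left out, the log2 change ran from -0.2823 to 0.0076 for KIF12, -0.0737 to 0.0275 for KIF24, -0.2275 to 0.1073 for KIF9, -0.0736 to 0.0652 for KIF2A, -0.0633 to 0.1134 for KIF13B and -0.0534 to 0.1115 for KIF1C.

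Same-numbered libraries deviated from their group means with a correlation of 0.023, so the numbers are not taken to pair them. With the replicate block 17 kinesins rose and 1 fell, against 16 and 1 without it, and the added call was KIF1B (limma adjusted p = 0.0418). Over all 13938 tested genes 3218 rose and 1080 fell with the block, against 3071 and 1037 without it.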

Other observations

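Cytoplasmic dynein is the motor that walks opposite to most kinesins. Of 30 tested dynein, dynactin and adaptor genes 9 rose and 2 fell, against 22% and 7.44% of all tested genes, and 3 rose and 2 fell in all 3 scalings, against 10% and 7.05%. DYNLL2, a light chain, had 126 and 116 TPM with barasertib and 86.9 and 89.6 TPM with DMSO (limma adjusted p = 0.00399), and DYNLT1, another light chain, rose with a log2 change of 0.39 (limma adjusted p = 0.00561). DYNC1I1, an intermediate chain best known from neurons, fell, with 10.6 and 10.6 TPM with barasertib and 14.4 and 17.2 TPM with DMSO (limma adjusted p = 0.0143). The DYNC1I1 call ended when either barasertib library (0.0732 without replicate 1, 0.0694 without replicate 2) or DMSO replicate 2 (0.0534) was left out. CAPZB, the capping protein subunit that dynactin shares with actin filaments, had 578 and 562 TPM with barasertib and 335 and 475 TPM with DMSO, a wide spread within DMSO (limma adjusted p = 0.0463). CAPZB did not pass without barasertib replicate 1 (0.184) or barasertib replicate 2 (0.158), nor after median-of-ratios scaling (0.119) or quantile normalisation (0.0513).

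Of 23 genes of intraflagellar transport, the cargo trains that kinesin-2 carries into cilia, 0 rose and 2 fell by limma, against 22% and 7.44% of all tested genes. At an unadjusted p under 0.05, 2 were higher and 3 lower, against 32.2% and 10.9%. DYNC2H1, the heavy chain of the dynein that returns these trains, had 3.07 and 3.10 TPM with barasertib and 4.94 and 4.59 TPM with DMSO (limma adjusted p = 0.0287). WDR19, a subunit of the returning trains, had 9.65 and 8.47 TPM with barasertib and 13.5 and 12.5 TPM with DMSO (limma adjusted p = 0.0175). Both fell in all 3 scalings and 0 of the 23 rose in all 3, against 7.05% and 10% of all tested genes. The call ended with any 1 library left out for DYNC2H1 (limma adjusted p of 0.072 to 0.12), and without barasertib replicate 2 (0.0743) or DMSO replicate 1 (0.0717) for WDR19.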
